A study of Mus musculus with 7 samples.

Results

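The liver makes most of the proteins that clot blood and most of the soluble complement proteins, and the 37 genes described here encode such proteins. They were taken by symbol from a list of genes that was drawn up with earlier results of these data known, though no measured value entered the rule. All 37 were found once among the 32285 genes of every matrix. Single-cell RNA was measured in 7 mouse liver libraries, each labelled with its own number. The sample labels and the study call the material single cells, while the series' design text calls it nuclei. GEO's labels call all 7 a hepatoblastoma model and state no group, genotype or age for any of them. In the study, tumors are NEJ634, NEJ687, NEJ709 and NEJ723, and healthy livers are NEJ638, NEJ654 and NEJ677, so the libraries are called tumor-named and healthy-named below, and each is given on its own with no test between the names. The description label of NEJ709 also carries the name NEJ634.

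In the study's methods, tumors came from ABC-Myc mice, which carry Alb-Cre and CAG-MYC on a C57BL/6J background. Cre driven by the albumin promoter removes a stop cassette there, so that a human MYC transgene is switched on in cells of the hepatocyte lineage. Controls in that mouse line were littermates that lacked 1 or both transgenes, and the labels do not say which of these the healthy-named animals carried. Livers were perfused and digested with collagenase before droplet capture, so the number of cells of a type depends on what survived dissociation.

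Clotting runs as a chain of proteases. Factors of the contact and tissue factor branches activate factor X, which with factor V turns prothrombin into thrombin, and thrombin cuts fibrinogen into fibrin. Antithrombin and the protein C system hold the chain back, and plasmin dissolves the clot. Complement is another chain: the classical and lectin branches cut C4 and C2, all branches meet at C3, and C5 to C9 then assemble a pore in the target membrane. Hepatocytes secrete most of these proteins under the control of liver transcription factors of the HNF1, HNF4, FOXA and C/EBP families, while macrophages, endothelial cells and fibroblasts make a few of them.

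Levels are given as CPM, the unique molecular identifiers (UMIs) of a gene per 1000000 UMIs of the same cells. UMIs count tagged transcript 3′ ends, so levels were not divided by gene length and are compared between libraries, not between genes. Intervals are exact 95% Poisson or binomial intervals and cover counting error only, not the spread between animals. After calling cells and removing 8857 predicted doublets, 72584 cells remained in 43 clusters, at 6716 to 17002 cells a library with median depths of 2115 to 4603 UMIs. Of these clusters, 30 were named from marker genes and 13 were left unnamed, and the unnamed cells were 12.3% to 94.4% of a library, the highest share being that of NEJ709. Pairs of libraries shared barcodes, 131 to 325 a library, of which 4 to 88 were hepatocyte-lineage-like in the 5 libraries used most below. The libraries also differed in Xist, the X-inactivation transcript of female cells, which stood at 485 to 1184 CPM in NEJ634, NEJ638 and NEJ654 and at no more than 0.108 CPM in the others. Each name therefore covers libraries with and without Xist.

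Cells of the hepatocyte lineage were defined by 12 markers that are not members, among them Alb, Apoa1, Ttr and Afp. They numbered 5465 in NEJ634, 256 in NEJ687, 335 in NEJ638, 555 in NEJ654 and 941 in NEJ677. NEJ709 and NEJ723 held 11 and 8 such cells, below the 20 cells required, and enter only through all their cells and their ambient RNA. Each of the 12 markers had UMIs in each of the other 5 libraries. The class was not the same cells under both names. In the tumor-named libraries, 96.2% of it in NEJ634 and 84.8% in NEJ687 was cluster 14, in which H19 and Afp, transcripts of the fetal liver, stood at 5824 to 9070.2 and 1595 to 2356 CPM. In the healthy-named libraries, it was cluster 25, with Afp at no more than 9.35 CPM, and cluster 23, whose cells had median depths of 886 to 1590 UMIs there and made up 87.99% of the class in NEJ677, 65.8% in NEJ654 and 14.9% in NEJ638.

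The summed level of the 37 genes in hepatocyte-lineage-like cells was higher in each healthy-named library than in either tumor-named one. It was 7569.8 CPM in NEJ634 and 10452 CPM in NEJ687. In the healthy livers' libraries it reached 22117 CPM (NEJ638), 20828 CPM (NEJ654) and 13922 CPM (NEJ677). The lowest healthy-named sum was 1.33 times the highest tumor-named sum (interval 1.32 to 1.35), and the sets did not overlap. Without the barcodes that libraries shared it was 1.31 times.

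That gap depended on which healthy-named cells were counted. In cluster 25 the sum was 22533 CPM in NEJ638, 27702 CPM in NEJ654 and 35022 CPM in NEJ677, against 7479.8 and 10453 CPM in cluster 14 of NEJ634 and NEJ687, a gap of 2.16 times. In cluster 23, the shallow cells, it was 9095, 5628 and 2839 CPM in the same order, and the lowest of these was 0.272 times the level in cluster 14 of NEJ687. A mean over cells, in which shallow cells weigh as much as deep ones, also turned the order, to 0.854 times. Cluster 23 cells of NEJ687 stood at 4188 CPM. The 12 markers followed the genes only in part: they summed to 27646 and 31944 CPM in NEJ634 and NEJ687 and to 104227 to 137375 CPM in the healthy-named libraries. For every 100 marker UMIs there were 27.4 and 32.7 UMIs of clotting and complement genes in NEJ634 and NEJ687, and 18.7, 15.2 and 13.4 in NEJ638, NEJ654 and NEJ677. The clotting and complement genes were thus lower per UMI of the cell but higher relative to the sum of these 12 markers in the tumor-named libraries. Alb alone stood at 4264 and 3171 CPM in NEJ634 and NEJ687 and at 40687, 54525 and 25960 CPM in NEJ638, NEJ654 and NEJ677. Whether the order relative to the markers holds without Alb was not tested. Markers of all other cell classes together stood at 9039 CPM in the class in NEJ634 and 1888 CPM in NEJ687, against 103, 91.5 and 79.5 CPM in NEJ638, NEJ654 and NEJ677, and at 8571 and 1896 CPM in cluster 14 against 37.5 to 95.1 CPM in cluster 25. The part of such RNA in the sums and in the orders of single genes below was not tested. An estimate of ambient RNA in the class was 43.8% in NEJ634 and 16.1% in NEJ687 but 2.35% to 5.57% in the healthy-named libraries, and its part in the result was not tested beyond a subtraction, which left the gap at 1.22 times.

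**Figure D1:**
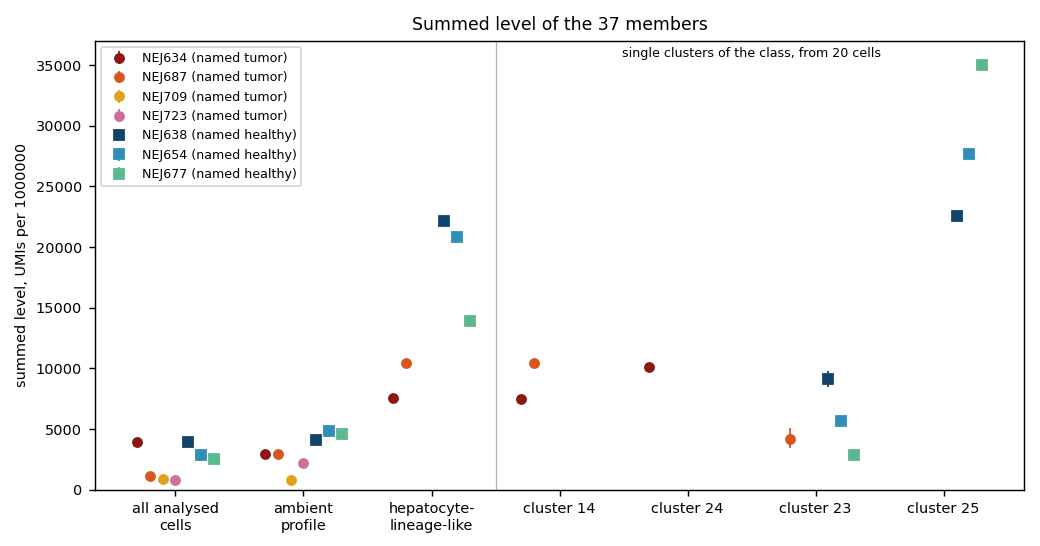
Summed level of the 37 genes in UMIs per 1000000 (linear axis from 0) over all cells, in ambient RNA, in hepatocyte-lineage-like cells and in clusters 14, 24, 23 and 25 of that class, with a point for each library and bars for the exact 95% counting interval. The class sums run from 7569.8 to 10452 CPM in tumor-named and from 13922 to 22117 CPM in healthy-named libraries, while clusters 23 and 25 of the healthy-named libraries lie far apart.

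Gene by gene, 27 of the 37 were lower in both tumor-named libraries than in all 3 healthy-named ones, against 21.4% of 9130 genes tested in the same cells. Of the 27, C9, F9 and Pros1 reached the 10 CPM needed for that test only in healthy-named libraries, and with no filter on level the count was also 27, against 13.8% of genes. None was higher in both, against 35% of those genes. The median log2 ratio of the tumor-named to the healthy-named median was -1.32 over the 37 genes and 0.27 over all genes tested. In clusters 14 and 25, 36 of 37 were lower, against 22.7% of genes, with C6 the exception, and none was higher, against 37.6%. In that comparison F9, Pros1, C9 and Mbl2 reached 10 CPM only in cluster 25, so their calls support nothing, and no count without the filter was made. The 10 genes that did not split the libraries by name were F10, F13b, Fgb, Serpinc1, Serpinf2, Kng1, Cpb2, C4b, C6 and Masp2. Apart from C6, each of these split by name once NEJ677 was left out. NEJ677 held the largest share of cluster 23, and the part of that cluster was not tested. Leaving out tumor-named NEJ687 instead also made 7 of them split: F10, Fgb, Serpinc1, Serpinf2, Kng1, C4b and Masp2.

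**Figure D2:**
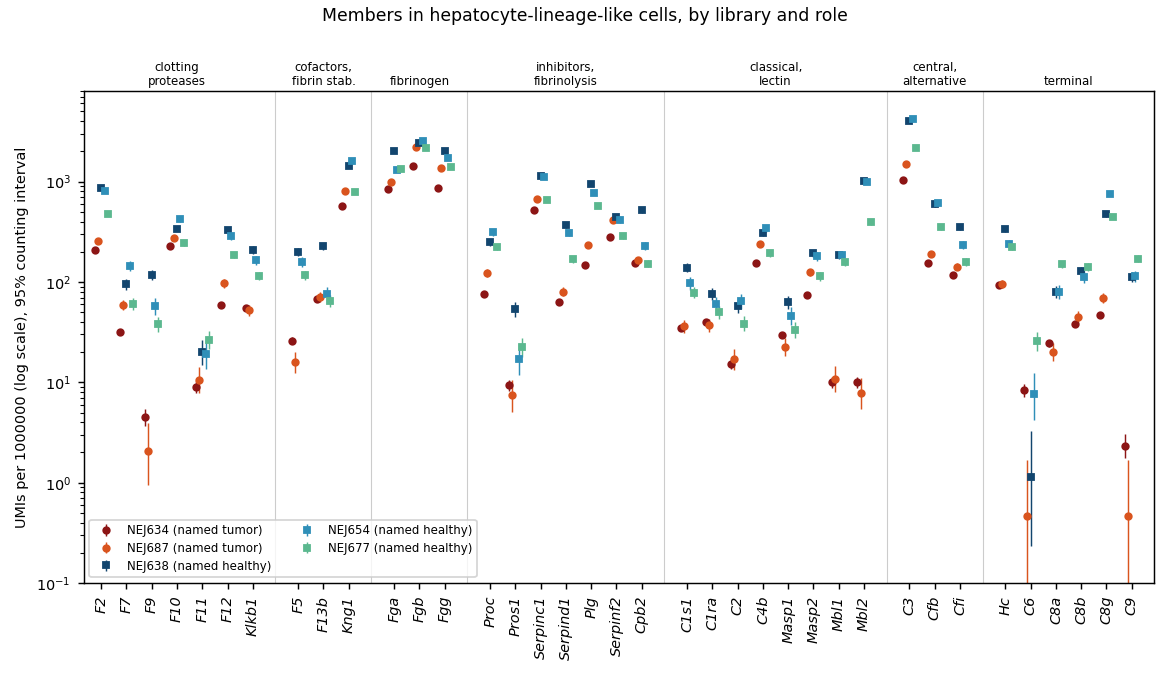
Level of each of the 37 genes in hepatocyte-lineage-like cells in CPM (log axis), grouped by role, with a point for each of the 5 libraries and bars for the exact 95% counting interval. For 27 genes both tumor-named points lie below all 3 healthy-named points, with C9 and Mbl2 the farthest apart.

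Among prothrombin and the clotting proteases, 6 of 7 genes were lower in both tumor-named libraries. F2, which encodes prothrombin, was at 208 CPM in NEJ634 and 258 CPM in NEJ687, and at 869, 812 and 472 CPM in NEJ638, NEJ654 and NEJ677. Its lowest healthy-named level was 1.83 times its highest tumor-named one. F9, the factor missing in haemophilia B, had the widest gap of this group. F9 was at 4.48 and 2.08 CPM in NEJ634 and NEJ687, the latter from 9 UMIs, and at 117, 57.1 and 38.2 CPM in NEJ638, NEJ654 and NEJ677, a gap of 8.53 times (interval 6.56 to 11.1). F10, the protease on which both branches meet, was the exception: it was at 229 and 271 CPM in NEJ634 and NEJ687 and at 340.1, 424 and 247 CPM in NEJ638, NEJ654 and NEJ677, so that NEJ687 lay above NEJ677. The remaining proteases F7, F11, F12 and Klkb1, the last encoding plasma prekallikrein, split by name with gaps of 1.02 to 2.07 times, and the interval for F7 reached down to 0.847.

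The cofactors moved less evenly. F5, the cofactor of factor X, was at 25.9 and 16.0 CPM in NEJ634 and NEJ687 and at 198, 159 and 116 CPM in NEJ638, NEJ654 and NEJ677, with no overlap and a gap of 4.497 times. Kng1, the kininogen of the contact system, was at 572 and 814 CPM in the tumor-named and at 1414, 1609 and 779 CPM in the healthy-named libraries, in the same order. F13b, the carrier subunit of the fibrin-stabilising factor XIII, was at 68.3 and 71.5 CPM against 228, 75.3 and 64.6 CPM. For Kng1 and F13b, NEJ677 lay within or below the tumor-named levels. Kng1 has a near copy, Kng2, which held 356 to 1601 UMIs in these cells, and reads could be split between them.

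The 3 fibrinogen chains were among the genes with the most UMIs, and their gaps were small. Fgb, the β chain, was at 1445 CPM in NEJ634, 2209 CPM in NEJ687, 2433 CPM in NEJ638, 2563 CPM in NEJ654 and 2162 CPM in NEJ677. NEJ687 and NEJ677 thus crossed, at a ratio of 0.979 (interval 0.949 to 1.01). Fga, the α chain, was at 839 and 999 CPM in NEJ634 and NEJ687 and at 2020.1, 1305 and 1322 CPM in NEJ638, NEJ654 and NEJ677, a gap of 1.31 times. Fgg, the γ chain, was at 872 and 1354 CPM against 2029, 1699 and 1392 CPM, and its gap of 1.03 times was within counting error.

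Of the 7 inhibitors and fibrinolysis genes, Plg, Proc, Pros1 and Serpind1 split by name. Plg, the precursor of plasmin, was at 147 and 234 CPM in NEJ634 and NEJ687 and at 943, 768 and 566 CPM in NEJ638, NEJ654 and NEJ677, a gap of 2.42 times. Serpinc1, which encodes antithrombin, was at 520.5 and 665 CPM against 1139, 1111 and 654 CPM, so NEJ687 and NEJ677 did not differ beyond counting error. Pros1, the protein S cofactor of activated protein C, was low in these cells, at 9.33 and 7.41 CPM against 53.2, 17.2 and 22.4 CPM. Proc, the protein C zymogen, and Serpind1, heparin cofactor II, had gaps of 1.81 and 2.09 times. Serpinf2, the plasmin inhibitor α2-antiplasmin, crossed furthest, at 279.6 and 414 CPM in NEJ634 and NEJ687 and 447, 417 and 284 CPM in NEJ638, NEJ654 and NEJ677. Cpb2, which encodes a carboxypeptidase that protects fibrin, crossed only through NEJ677, at 152 CPM against 167 CPM in NEJ687.

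In the classical and lectin pathway, 6 of 8 genes split by name, and the mannose-binding lectins did so by the widest margins. Mbl2 was at 10.0 CPM in NEJ634 and 7.87 CPM in NEJ687, and at 1009, 989.7 and 393 CPM in NEJ638, NEJ654 and NEJ677. Its gap was 39.2 times (interval 34.1 to 45.1), and 132 times between clusters 14 and 25. Mbl1, the other mannose-binding lectin, was at 10.0 and 10.9 CPM against 185, 185 and 159 CPM, a gap of 14.6 times. The serine proteases that these lectins activate were far closer: Masp1 was at 29.8 and 22.5 CPM against 62.7, 46.0 and 33.6 CPM, and Masp2 crossed at 0.915 times. The gap of Masp1 was 1.13 times (interval 0.920 to 1.37), and it no longer split with ambient RNA subtracted or in the mean over cells. Most Masp1 UMIs in captured cells of the healthy-named libraries lay in endothelial-like cells, as given below. Lectin genes and their protease genes thus had gaps of different size in this class, and the part of other cells in the Masp1 level was not tested.

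The classical proteases C1s1 and C1ra and the convertase subunit C2 had gaps of 2.17, 1.25 and 2.28 times. C1s1 was at 34.5 and 36.1 CPM in NEJ634 and NEJ687 and at 139, 97.1 and 78.4 CPM in NEJ638, NEJ654 and NEJ677. C1ra was at 39.9 and 37.04 CPM against 76.3, 59.6 and 49.7 CPM. C2 was at 15.2 and 16.9 CPM against 57.8, 64.2 and 38.5 CPM. All 3 were thus lower in both tumor-named libraries, at low counts. C1ra no longer split with ambient RNA subtracted, and neither C1ra nor C2 did in the mean over cells. C4b, its convertase partner, was at 155 and 237 CPM against 310.3, 342 and 193 CPM, and NEJ687 lay above NEJ677. The near copy C4a held 23 to 164 UMIs, the copies C1rb and C1s2 at most 2.

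C3, the hub of all complement branches, and the alternative pathway genes Cfb and Cfi all split by name. C3 was at 1048 and 1495 CPM in NEJ634 and NEJ687 and at 3999, 4239 and 2153 CPM in NEJ638, NEJ654 and NEJ677, a gap of 1.44 times (interval 1.39 to 1.49). Cfb, the alternative convertase protease, was at 153 and 189 CPM against 593, 607 and 350.3 CPM. Cfi, which inactivates C3b and C4b, had the smallest gap of this group, 1.12 times, with an interval from 0.992 to 1.25.

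Of the 6 terminal pathway genes, 5 split by name, each by more than 2 times. C9, whose product forms the ring of the pore, was at 2.34 CPM in NEJ634 and 0.463 CPM in NEJ687, from 56 and 2 UMIs, and at 111, 114 and 170.3 CPM in NEJ638, NEJ654 and NEJ677. This was the widest gap of all 37 genes, 47.5 times (interval 35.6 to 64.4). C8g was at 47.2 and 69.2 CPM in NEJ634 and NEJ687 and at 470.0, 749.6 and 441 CPM in NEJ638, NEJ654 and NEJ677, a gap of 6.37 times. C8a and C8b, which encode the other chains of C8, had gaps of 3.25 and 2.51 times, narrower than that of C8g. Hc, which encodes C5, was at 93.7 and 95.1 CPM against 334, 242 and 225 CPM.

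C6 was the exception of the pathway. It was at 8.33 and 0.463 CPM in NEJ634 and NEJ687 and at 1.13, 7.58 and 25.6 CPM in NEJ638, NEJ654 and NEJ677, from 2 to 199 UMIs. Its libraries did not order by name at all, and most of its UMIs lay in other cells, as described below.

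The healthy-named libraries were not alike. NEJ638 had the highest level of 22 of the 37 genes, NEJ654 of 10 and NEJ677 of 5, which were F11, C6, C8a, C8b and C9. The same shares over all genes were not counted, so this says nothing about the 37 genes in particular. C8a was at 149.6 CPM in NEJ677 against 79.3 and 79.4 CPM in NEJ638 and NEJ654. The summed level of the class was lowest in NEJ677 of these 3. In cluster 25 alone it was highest there, at 35022 CPM against 22533 and 27702 CPM in NEJ638 and NEJ654. Cluster 23 made up 87.99% of the class in NEJ677, 14.9% in NEJ638 and 65.8% in NEJ654. The part of this cell mix in the levels was not tested. In ambient RNA, where NEJ677 was highest for 20 of the 37 genes, C8a and C9 were at 41.5 and 48.2 CPM in it against 18.1 to 18.7 and 11.4 to 23.5 CPM in the other healthy-named libraries. NEJ677 is also the healthy-named library without Xist, and the part of sex in these levels was not tested.

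**Figure D3:**
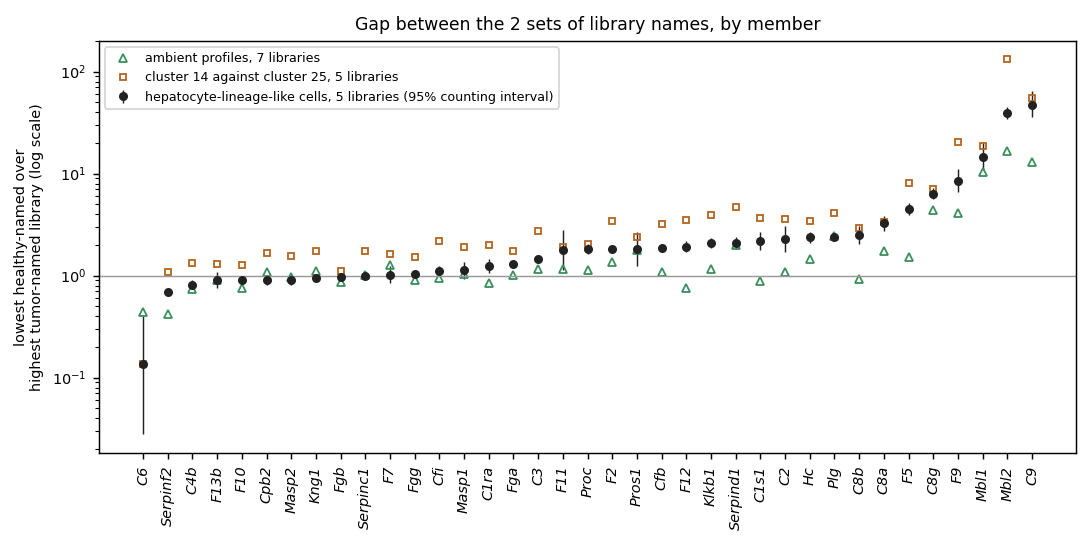
For each of the 37 genes, the lowest healthy-named level divided by the highest tumor-named level (log axis, line at 1), in hepatocyte-lineage-like cells, in clusters 14 and 25, and in ambient RNA, with exact 95% counting intervals for the class. The ratio in the class passes 1 for 27 genes, against 21.4% of all genes tested, 2 for 14 genes and 5 for 5 genes. It runs from 0.136 for C6 to 47.5 for C9. Shares of all genes above 2 and 5 were not counted.

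The widest gaps, above 5 times, belonged to C9, Mbl2, Mbl1, F9 and C8g, and these lie in 3 of the 7 role lists. Of these, C9 and F9 reached 10 CPM only in healthy-named libraries. How many of all genes had gaps of that size was not counted. Alternative ways of choosing and counting cells were run for single genes, without the comparison of clusters 14 and 23. Under these, and with each library left out, 18 genes were lower in every tumor-named library used. They were F2, F5, F9, F11, Plg, Proc, Pros1, Serpind1, Klkb1, C1s1, Hc, C8a, C8b, C8g, C9, Cfb, Mbl1 and Mbl2. The share of all genes that stayed lower under all of these settings is not given. Whether 18 is more than other genes would give was therefore not tested.

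Ambient RNA, read from barcodes ranked 45000 to 90000 by depth, gave a view of all 7 libraries. These barcodes held up to 952 UMIs in NEJ634 and up to 90 to 460 in the others, and whether those of NEJ634 include cells was not tested. The 37 genes summed to 2925 CPM in NEJ634, 2949 CPM in NEJ687, 829 CPM in NEJ709 and 2171 CPM in NEJ723. They summed to 4127 CPM in NEJ638, 4803 CPM in NEJ654 and 4601 CPM in NEJ677. The lowest healthy-named sum was 1.40 times the highest tumor-named one, with no overlap. Of the 36 genes tested, 23 were lower in all 4 tumor-named libraries, against 6.64% of 9052 genes, and none was higher, against 17.1%. Of the 23, C9, F9, Mbl1 and Mbl2 reached the 10 CPM needed only in healthy-named libraries, so their calls support nothing. No count without that filter was made in ambient RNA. With ambient RNA from which barcodes that were cells elsewhere had been dropped, 22 of 37 were lower, against 6.49%, and none higher, against 21.2%. The 22 again held C9, F9, Mbl1 and Mbl2, and also F11, at no more than 4.25 CPM in tumor-named libraries before that drop. By the levels before the drop, all of these were under 10 CPM in every tumor-named library. Ambient RNA mixes RNA from all lysed cells, so fewer hepatocytes and less of a transcript per hepatocyte cannot be told apart in it.

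Levels of Mbl2 and C9 in ambient RNA are given here as values only, since their calls support nothing. Mbl2 was at 6.51, 6.96, 1.93 and 0.755 CPM in NEJ634, NEJ687, NEJ709 and NEJ723 and at 115, 459 and 237 CPM in NEJ638, NEJ654 and NEJ677. C9 was at 0.663, 0.87, 0 and 0.48 CPM against 11.4, 23.5 and 48.2 CPM, where the 0 of NEJ709 is below a floor of 3 UMIs, or 2.90 CPM. F11 and Mbl1 were also at 0 UMIs in NEJ709. Serpinf2 went the other way in part: it was highest in NEJ723, at 199 CPM, and lowest in NEJ709, at 55.1 CPM, with the healthy-named libraries at 84.6 to 119 CPM.

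Over all cells the sums did not split by name. They were 3958, 1093, 870 and 809 CPM in NEJ634, NEJ687, NEJ709 and NEJ723 and 3894, 2859 and 2513 CPM in NEJ638, NEJ654 and NEJ677. NEJ634, in which 32.1% of cells were hepatocyte-lineage-like, was the highest of all, and without it the lowest healthy-named sum was 2.30 times the highest tumor-named one.

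The mix of the 37 genes differed as well as their sum. Fibrinogen made up 41.7% of their UMIs in hepatocyte-lineage-like cells of NEJ634 and 43.6% in NEJ687, against 29.3%, 26.7% and 35.0% in NEJ638, NEJ654 and NEJ677. The sets lay 6.67 percentage points apart (interval 6.19 to 7.15). Classical and lectin pathway genes made up 4.87% and 4.72% against 9.19%, 9.43% and 7.61%, and terminal pathway genes 2.83% and 2.20% against 5.08%, 6.26% and 8.28%. So fibrinogen took a larger share in the tumor-named libraries and the lectin and terminal pathways a smaller one. In ambient RNA, fibrinogen did not split: it was 34.3%, 44.0%, 22.99% and 23.3% in NEJ634, NEJ687, NEJ709 and NEJ723 and 28.4%, 28.2% and 33.4% in NEJ638, NEJ654 and NEJ677. The central and alternative pathway share, 17.4% and 17.5% against 22.4%, 24.4% and 19.1% in the cells, did not split in ambient RNA either. Terminal shares did: terminal pathway genes made up 2.80% to 3.74% in the tumor-named and 6.08% to 10.8% in the healthy-named libraries. Classical and lectin pathway genes made up 4.78% to 6.65% and 6.98% to 14.6%, a split within counting error. The share was 6.65% in NEJ709 (interval 5.08 to 8.53) and 6.98% in NEJ638 (interval 6.64 to 7.33).

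**Figure D4:**
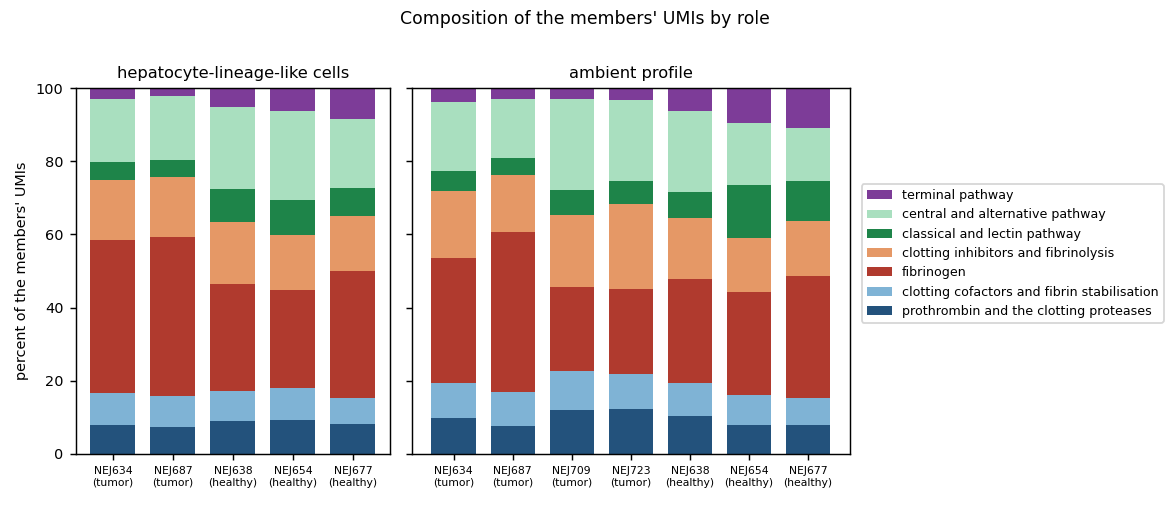
Stacked bars of the percent of the UMIs of the 37 genes that fall to each of 7 roles, a bar for each library, in hepatocyte-lineage-like cells and in ambient RNA. In the cells fibrinogen is at 41.7% and 43.6% in the tumor-named and at 26.7% to 35.0% in the healthy-named libraries, while in ambient RNA the fibrinogen shares overlap.

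Promoters of the genes at both ends of the order of gaps are printed here to show what the genes with the widest and the smallest ratio carry at their starts. RefSeq gave 300 bases, from 250 before to 50 after the start, for 29 of the 37 genes. The sequences are from GRCm38.p6, read 5′ to 3′ along the gene, in lower case, with a motif match in capitals. The 4 genes with the widest gaps lie at chr15:6445096-6445395 (C9), chr19:30232678-30232977 (Mbl2), chr14:41151206-41151505 (Mbl1) and chrX:59999214-59999513 (F9), all on the plus strand.
C9: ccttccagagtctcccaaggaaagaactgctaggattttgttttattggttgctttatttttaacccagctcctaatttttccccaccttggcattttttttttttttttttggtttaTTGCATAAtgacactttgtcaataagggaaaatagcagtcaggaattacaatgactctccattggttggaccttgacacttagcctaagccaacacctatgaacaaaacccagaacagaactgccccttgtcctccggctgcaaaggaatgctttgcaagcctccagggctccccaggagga
Mbl2: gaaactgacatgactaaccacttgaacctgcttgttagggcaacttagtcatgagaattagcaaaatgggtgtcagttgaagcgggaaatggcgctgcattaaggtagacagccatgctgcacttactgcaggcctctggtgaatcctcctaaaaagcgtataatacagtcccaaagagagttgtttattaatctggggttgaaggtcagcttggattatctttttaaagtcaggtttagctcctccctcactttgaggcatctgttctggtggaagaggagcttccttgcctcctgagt
Mbl1: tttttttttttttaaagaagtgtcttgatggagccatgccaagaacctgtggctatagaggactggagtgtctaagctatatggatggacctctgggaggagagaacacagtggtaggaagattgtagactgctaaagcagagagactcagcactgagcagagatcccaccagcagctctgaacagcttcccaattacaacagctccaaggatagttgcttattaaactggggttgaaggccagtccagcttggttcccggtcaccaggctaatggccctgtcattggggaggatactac
F9: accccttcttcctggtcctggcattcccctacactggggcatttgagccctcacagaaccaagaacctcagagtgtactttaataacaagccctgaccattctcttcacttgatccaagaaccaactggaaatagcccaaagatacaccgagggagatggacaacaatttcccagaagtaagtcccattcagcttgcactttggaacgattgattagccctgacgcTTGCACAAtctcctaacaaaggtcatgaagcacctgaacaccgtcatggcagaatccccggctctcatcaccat
The 4 with the smallest ratio among genes with a RefSeq sequence, which leaves out C4b, lie at chr15:4726960-4727259 (C6, plus strand), chr11:75439452-75439751 (Serpinf2, minus strand), chr1:139501457-139501756 (F13b, plus strand) and chr8:13037058-13037357 (F10, plus strand).
C6: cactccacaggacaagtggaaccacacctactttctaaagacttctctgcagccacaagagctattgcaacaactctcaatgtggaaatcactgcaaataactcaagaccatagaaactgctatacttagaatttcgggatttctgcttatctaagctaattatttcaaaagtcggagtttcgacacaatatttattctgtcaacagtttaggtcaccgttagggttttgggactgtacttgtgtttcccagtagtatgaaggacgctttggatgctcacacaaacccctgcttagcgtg
Serpinf2: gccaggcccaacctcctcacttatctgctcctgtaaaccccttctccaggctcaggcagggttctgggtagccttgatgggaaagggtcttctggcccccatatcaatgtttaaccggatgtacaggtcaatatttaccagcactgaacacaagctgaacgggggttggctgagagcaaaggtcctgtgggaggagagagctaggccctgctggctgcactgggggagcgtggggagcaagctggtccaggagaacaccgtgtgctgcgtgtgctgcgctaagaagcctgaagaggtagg
F13b: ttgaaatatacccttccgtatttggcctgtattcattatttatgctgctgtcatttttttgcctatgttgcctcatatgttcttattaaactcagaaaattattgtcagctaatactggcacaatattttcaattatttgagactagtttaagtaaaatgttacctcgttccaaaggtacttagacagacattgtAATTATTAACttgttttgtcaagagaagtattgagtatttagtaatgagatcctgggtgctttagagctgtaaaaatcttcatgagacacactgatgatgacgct
F10: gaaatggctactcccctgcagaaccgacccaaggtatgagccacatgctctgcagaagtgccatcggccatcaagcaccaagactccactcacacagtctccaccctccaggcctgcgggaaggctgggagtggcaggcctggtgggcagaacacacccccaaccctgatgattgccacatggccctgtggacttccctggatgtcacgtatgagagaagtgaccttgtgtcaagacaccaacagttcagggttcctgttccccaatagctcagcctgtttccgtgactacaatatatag
Both strands were searched for 5 short motifs of liver factors and of the core promoter. The C/EBP letters TTGCNNAA were in 11 of the 29 promoters, or 37.9%, and in 12.2% of 27025 promoters of all genes. They lie 132 bases before the start in C9 and 24 bases before it in F9. The HNF1 motif was in F13b, 55 bases before the start, and in Hc, 6.90% against 0.47%. TGTTTAC for FOXA was in 6.90% against 4.05%, TATAAA in 10.3% against 15.7%, and CAAAGTCCA for HNF4 in none of the 29 against 0.555%. Mbl2, Mbl1, C6, Serpinf2 and F10 held none of the 5. Motifs were counted separately, so matches of different motifs may overlap. A match is a run of letters, not a bound site, and no match says only that the letters are not in this window.

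The 37 genes lie on 15 chromosomes in GENCODE M21, an annotation of GRCm38, and the files name no build. Among them, 9 pairs are neighbours within 1 Mb, including Fgg, Fga and Fgb, C8b and C8a, C1ra and C1s1, F7 and F10, F11 and Klkb1, and C4b, Cfb and C2. F7 and F10 lie 1.499 kb apart, with ratios of 1.02 and 0.909 whose intervals overlap, and Fga and Fgb 6.51 kb apart, with ratios of 1.31 and 0.979. C2 and Cfb lie 0.086 kb apart on 1 strand, and both split by name.

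In cells of other types, UMIs of the 37 genes were compared with what ambient RNA would give. The expected UMIs of a gene in a class were taken from the ambient profile of the library, scaled by the 12 hepatocyte-lineage markers in that class. A gene was called where it had at least 3 times that, with at least 20 UMIs, in at least 2 libraries. In 14 classes 30 pairs of gene and class were called, from 11 genes: F5, F10, Pros1, C1s1, C1ra, C2, C3, C4b, C6, Cfb and Masp1. Another 20 were tested and called in no class, among them fibrinogen and Mbl2, and F7, F9, F11, C8a, C8b and Mbl1 reached the required UMIs in fewer than 2 libraries of every class and were not tested. By the same rule 46.8% to 98.2% of all genes tested were called in the 7 classes with calls, since most genes are not liver transcripts, and 2.47% in the cholangiocyte-like class.

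Endothelial-like cells held Pros1 and Masp1. Pros1 was at 183, 192 and 148 CPM in NEJ634, NEJ687 and NEJ723 and at 359.7, 238 and 315 CPM in NEJ638, NEJ654 and NEJ677, or 57.2 to 198 times the expected level. The class was mostly cluster 31 in NEJ638, clusters 21 and 35 in NEJ654 and NEJ677, and cluster 21 in the tumor-named libraries. In cluster 21 alone, Pros1 was at 188, 194 and 136 CPM in NEJ634, NEJ687 and NEJ723 and at 239, 263 and 323 CPM in NEJ638, NEJ654 and NEJ677. Endothelial markers in the class were at 7024 to 8664 CPM in the tumor-named and 11322 to 13264.5 CPM in the healthy-named libraries. Haemoglobin was at 7875 to 31161 CPM and 8323 to 10511 CPM. The part of these differences in the Pros1 levels was not tested. Masp1 was at 167, 143 and 190.1 CPM in the same tumor-named libraries and at 174, 224 and 246 CPM in the healthy-named ones. C1ra was called too, in the 3 healthy-named libraries, at 13.4 to 22.3 CPM. These 3 of 29 genes tested stood beside 95.8% of all genes, and the other 26 were not called. Fgb lay at 0.961 to 1.58 times the expected level, while C2 and C6 passed the limits in NEJ677 alone, at 5.18 and 4.495 times. Of the Pros1 UMIs in captured cells of the healthy-named libraries, 66.0% to 79.2% lay in endothelial-like cells and 1.71% to 5.26% in hepatocyte-lineage-like cells, which were 4.99% to 12.7% of those cells. Masp1 had 54.2% to 70.2% of its UMIs in endothelial-like cells of the same libraries.

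Macrophage-like cells held more UMIs of C6 than any other named class in all 7 libraries. C6 was at 129, 186, 202 and 44.6 CPM in NEJ634, NEJ687, NEJ709 and NEJ723 and at 395, 434 and 614 CPM in NEJ638, NEJ654 and NEJ677, so the sets did not overlap. It lay 18.3 to 394 times above the expected level in all 7 libraries. These cells were cluster 34 in the healthy-named and mostly clusters 13 and 19 in the tumor-named libraries, so different clusters were set side by side. Macrophage markers in the class were at 1943 CPM in NEJ723 and at 9151 to 13539 CPM in the other 6 libraries, and haemoglobin was at 34807 to 126861 CPM in the tumor-named and 5229 to 11517 CPM in the healthy-named libraries. The part of these differences in the levels of C6, C4b and C2 was not tested. C4b was called only in the 3 healthy-named libraries, at 52.1, 145 and 160.2 CPM against 7.59 to 20.1 CPM in the tumor-named ones. C2 was at 31.4, 40.4, 63.3 and 11.2 CPM in NEJ634, NEJ687, NEJ709 and NEJ723 and at 62.4, 97.8 and 108 CPM in NEJ638, NEJ654 and NEJ677. Cfb, Pros1 and C1ra were called as well, 6 of 23 genes tested against 91% of all genes, while Fgb lay at 0.722 to 1.13 times.

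Among myeloid cells, F10 and F5 stood out. Monocyte-like cells held F10 at 347, 399.9, 244 and 116 CPM in NEJ634, NEJ687, NEJ709 and NEJ723 and at 234, 122 and 163 CPM in NEJ638, NEJ654 and NEJ677, which is 13.9 to 96.3 times the expected level. F5 was called there in 6 of 7 libraries, at up to 61.7 CPM. Neutrophil-like cells held F5 at 39.6 to 61.3 CPM and C3 at 253 to 329 CPM, with overlap between the names for both. They were clusters 5 and 33, and cluster 5 had 65 to 341 cells in the tumor-named libraries, 24 in NEJ638 and 0 in the other healthy-named ones. In cluster 33 alone, C3 was at 216, 154, 151 and 164 CPM in NEJ634, NEJ687, NEJ709 and NEJ723 and at 244, 274 and 253 CPM in NEJ638, NEJ654 and NEJ677, with no overlap. Hepatocyte-lineage markers in neutrophil-like cells were at 275 to 1173 CPM in the tumor-named and 3576 to 6464 CPM in the healthy-named libraries. C3 was called in 5 of 7 libraries in these cells, and the part of ambient RNA in its levels was not tested. F10 and C3 were also above the expected level in promyelocyte-like cells of NEJ687, NEJ709 and NEJ723, and were called there. In NEJ634 such cells carried F5, F10 and C3 at 1.04 to 1.64 times the expected level, short of the 3 times needed. The missing calls in NEJ634 say little. Hepatocyte-lineage markers stood at 10375 CPM in its promyelocyte-like cells, against 117 to 289 CPM in the called libraries. The genes described here summed to 2950 CPM there, near the 2925 CPM of ambient RNA, yet 0.936 times the expected level. The expected level was thus above ambient RNA itself. F10 and C3 were at 138 and 497 CPM in NEJ634, against 17.7 to 69.4 and 58.7 to 143 CPM in the called libraries. Calls came to 5 of 12 genes tested in monocyte-like cells, 3 of 11 in neutrophil-like and 3 of 5 in promyelocyte-like cells, against 97.8%, 93.6% and 90.3% of all genes. The one gene tested in megakaryocyte-like cells, F5, was at 132, 745 and 169.7 CPM in NEJ634, NEJ687 and NEJ723, the last from 14 UMIs. It was called beside 46.8% of all genes and was no longer called without NEJ634 or with cells above the percentile rule only.

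All 9 genes tested in mesenchymal-like cells were called, against 98.2% of all genes. Masp1 was at 162 and 449 CPM in NEJ634 and NEJ723 and 516, 614 and 569.8 CPM in NEJ638, NEJ654 and NEJ677, or 24.6 to 441 times the expected level. C3 was at 682, 183 and 1301 CPM in the healthy-named libraries, where it was called, and at 210.4 and 29.9 CPM in NEJ634 and NEJ723, where it was not. C1s1, C1ra, C2, C4b, C6, Cfb and Pros1 followed, each called in 2 to 4 of 5 libraries of 22 to 122 cells. No gene was called in 7 classes: none of 22 tested in cholangiocyte-like cells, of 11 in erythroid-like cells (90.7% of all genes), of 11 in T/NK-like cells (96.9%), of 13 in B-like cells (95.3%), of 1 in plasmacytoid dendritic-like cells (94.5%), of 3 in dendritic-like cells (90.2%) and of 2 in basophil/mast-like cells (94.6%). The lack of calls in cholangiocyte-like cells says little, because the expected level there was above ambient RNA itself, as described below. In T/NK-like cells the 37 genes summed to 137 to 457 CPM, 0.906 to 1.49 times the expected level.

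**Figure D5:**
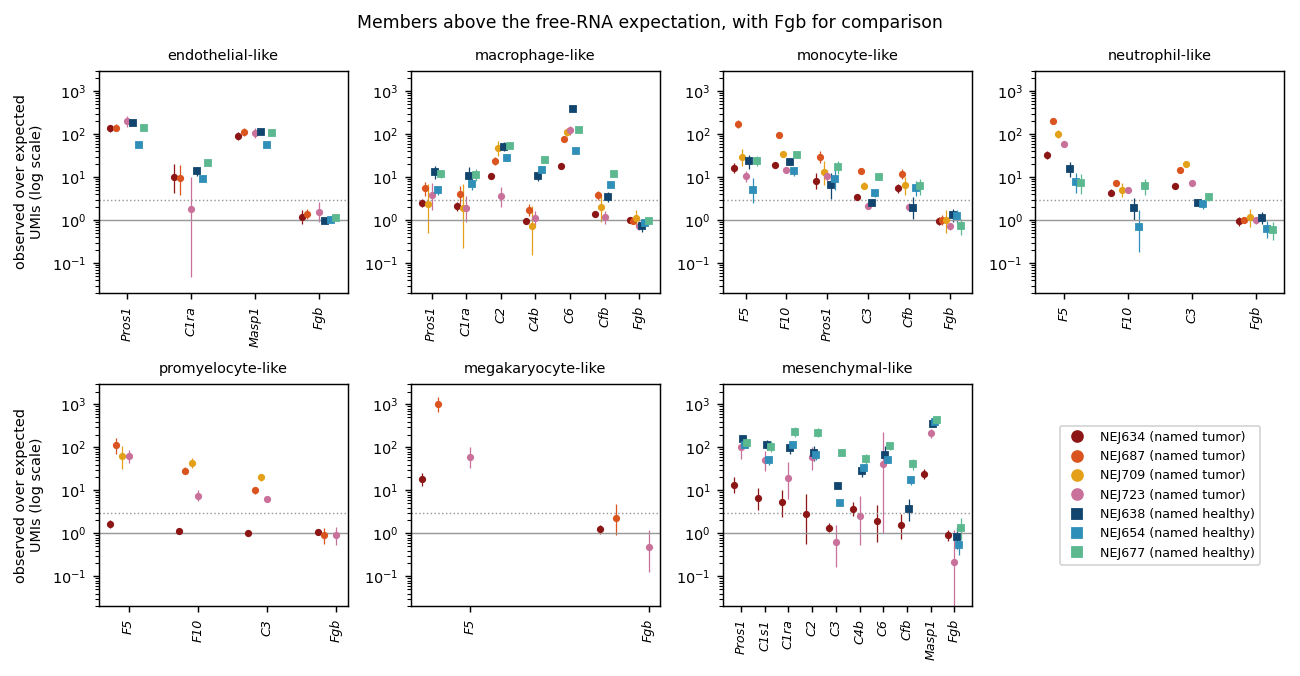
Observed UMIs divided by those expected from ambient RNA (log axis, solid line at 1, dotted line at 3) for the genes called in 7 other cell classes and, for comparison, Fgb, with a point for each library and exact 95% Poisson intervals; points with 0 UMIs are left out. Pros1 in endothelial-like cells lies at 57.2 to 198, C6 in macrophage-like cells at 18.3 to 394, and Fgb between 0.221 and 2.31 over all classes.

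The class called cholangiocyte-like needs its own account. Its leading genes were Cldn7, Clu, Bex1, Hspb1, Epcam and Spink1, and Afp stood at 2183 CPM in it. It held 258 cells in NEJ634, 279 in NEJ723 and 22 in NEJ677, where the 37 genes summed to 3471, 2701 and 5042 CPM. Cholangiocyte markers stood at 3293, 1042 and 25715.5 CPM in the same order, so the cells of NEJ677 were not like the others. The part of this difference in the levels below was not tested. In NEJ723, 65.2% of all their UMIs in cells lay in this class and 2.03% in hepatocyte-lineage-like cells. Relative to the hepatocyte-lineage markers it carried, the sums were 0.74 and 0.882 times the expected level in NEJ634 and NEJ723 and 2.36 times in NEJ677. Those markers stood at 15455, 12678 and 17482 CPM in the class. In NEJ634 and NEJ723 the sums lay above those of ambient RNA, 2925 and 2171 CPM, yet below the expected level. The expected level was thus more than ambient RNA alone could give, and the rule could hardly call a gene in these libraries. In the 22 cells of NEJ677 alone, Proc, C2, C3 and Cfb passed the limits, at 7.10 to 10.1 times, which falls short of the 2 libraries required. Mbl2 was at 3.86 and 0.461 CPM in NEJ634 and NEJ723 and at 23.2 CPM in NEJ677, from 4, 7 and 6 UMIs.

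Depth differed between classes, so each cell was also thinned to 500 UMIs. A UMI of any of the 37 genes was then seen in 91.8% and 91.0% of hepatocyte-lineage-like cells of NEJ634 and NEJ687 and in 98.8%, 91.0% and 76.3% of those of NEJ638, NEJ654 and NEJ677. In T/NK-like cells, which should lack these genes, the share was 20.7%, 9.25%, 3.77% and 10.7% in NEJ634, NEJ687, NEJ709 and NEJ723 and 22.8%, 23.6% and 16.6% in NEJ638, NEJ654 and NEJ677. Without thinning the shares were 96.2% to 99.8% and 40.5% to 83.5%, at median depths of 1500 to 12891 UMIs and 1644 to 7725 UMIs. The share of cells with any such UMI thus did not split by name. For Mbl2 it did: 0.421% and 0.391% of thinned hepatocyte-lineage-like cells in NEJ634 and NEJ687 had a UMI, against 40.9%, 28.6% and 9.88% in NEJ638, NEJ654 and NEJ677. In T/NK-like cells the Mbl2 share was 0.979%, 2.61% and 0.371% in NEJ638, NEJ654 and NEJ677, and 0 of 121 and 0 of 346 such cells of NEJ634 and NEJ687 had a UMI, which by a floor of 3 cells allows shares of up to 2.48% and 0.867% of cells with a UMI. Summed over the cells without thinning, Mbl2 was at 10.0 and 7.87 CPM, beside 6.51 and 6.96 CPM in ambient RNA.

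Other genes of these pathways were read in hepatocyte-lineage-like cells by the same rule. Some of them reached the 10 CPM needed only under the name where they were high, so their calls are counted here but support nothing. They include Colec11, C4bp, Nqo1 and Foxa1 among the lower ones, and A2m, Plaur, F13a1, C5ar1 and Itgam among the higher ones. Beside the 21.4% of all genes that were lower and the 35% that were higher, 17 of 20 further liver-secreted clotting and complement proteins tested were lower in both tumor-named libraries and 1, the protease inhibitor A2m, was higher. Serpina1b, an α1-antitrypsin gene, was at 596 and 1006 CPM in NEJ634 and NEJ687 and at 4171, 3835 and 3025 CPM in NEJ638, NEJ654 and NEJ677, and its near copy Serpina1a was at 470.1 and 760.2 CPM against 2685, 2972 and 2419 CPM. The vitamin K cycle, which activates prothrombin and factors VII, IX and X, had 1 lower gene of 4, Nqo1, a share near the 21.4% of all genes. Vkorc1, the warfarin target, was at 301 and 472 CPM against 348, 389 and 279 CPM, and Vkorc1l1 at 22.8 and 30.6 CPM against 34.7, 18.2 and 15.5 CPM.

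Genes that other cells use in clotting gave no lower gene among 6 tested, against 21.4% of all genes, and 3 higher ones, Plaur, F13a1 and Anxa2, against 35%. Anxa2, a plasminogen receptor subunit, was at 76.3 and 37.04 CPM in NEJ634 and NEJ687 and at 15.1, 14.7 and 8.61 CPM in NEJ638, NEJ654 and NEJ677. Of 10 complement genes of other cells, 1 was lower, Cd59a, and 2 higher, C5ar1 and Itgam, both below those shares. C1qb, a macrophage gene, was at 144, 32.6, 8.68, 209 and 49.97 CPM in NEJ634, NEJ687, NEJ638, NEJ654 and NEJ677, and C1qc at 121, 28.7, 6.80, 117 and 29.6 CPM, with no order by name.

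Of 11 liver transcription factors tested, 6 were lower in both tumor-named libraries, against 21.4% of all genes, and none higher, against 35%: Hnf4a, Foxa1, Foxa2, Cebpa, Nr1h4 and Nr5a2. Hnf4a, a nuclear receptor of hepatocytes, was at 99.98 and 143 CPM in NEJ634 and NEJ687 and at 176, 161 and 177 CPM in NEJ638, NEJ654 and NEJ677. Cebpb, a factor of the acute-phase response, was at 371 and 289.6 CPM against 513, 149 and 220.3 CPM and did not split by name.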

How the data were processed

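Droplet-based single-cell RNA libraries from 7 mouse livers were analysed. The deposited matrices hold raw UMI counts of 32285 genes for all listed barcodes. The submitters' processing notes name Cell Ranger 6.0, while the matrix headers read Cell Ranger 4, and the genome build is not given in the sources used here. Totals were 40214395 to 132485391 UMIs a library, and their number sets the counting error behind each interval. All values were computed from these counts.

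Barcodes above 500 UMIs, under 20% mitochondrial UMIs and either deeper than a depth cutoff (99th percentile over the 3000 deepest barcodes, divided by 10) or different from the ambient profile at a false discovery rate of 0.01 were taken as cells. Below the cutoff, at most the 20000 deepest barcodes of a library were set against the ambient profile. This limit was met in NEJ634, NEJ709 and NEJ723, with 68463, 22814 and 36117 candidates, and in no healthy-named library. Doublets were predicted within each library and removed in proportion to its number of cells (0.8% per 1000 cells), because the caller's own threshold marked under 0.5% of cells in 6 of 7 libraries. After scaling each cell to 10000 UMIs and taking logs, 2000 variable genes, chosen with the 104 genes of the member and pathway lists left out, entered 40 components, 15 neighbours and Leiden clustering at resolution 1 in scanpy 1.11.5. Clusters were named from 137 markers of 17 classes. The members, markers and lists were chosen with earlier results of these data known.

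UMIs were summed over the cells of a class in each library. The labels state no groups, so libraries were not averaged or tested, and the names tumor and healthy are the study's. Orders of levels were counted over genes of at least 10 CPM in 1 library. Genes given with a value in each library were, for each role, the 2 with the most UMIs and the one with the widest range, and those called above ambient RNA. Plg, Mbl1, C8a and Cpb2 were added after their values were seen. Of each pathway list, the 2 genes with the most UMIs were given, except 1 that is not reported here. The alternatives were other cell, doublet, cluster, total and filter rules and each library left out. Calling of cells, cluster naming, the ambient rule and the order of levels were tested on simulated data. For the ambient rule, the simulated class made none of the hepatocyte-lineage markers itself and held a small fixed share of ambient RNA. Classes rich in those markers, such as the cholangiocyte-like one, were not simulated.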

Additional observations from a re-analysis of the deposited data

Results flagged for a closer look

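Unnamed clusters enter the comparisons above only within the sums over all cells, and UMIs of the 37 genes were counted in them as well. Their summed level in unnamed cells was 2020.3 CPM in 6298 cells of NEJ634, 275 CPM in 2549 cells of NEJ687, 845 CPM in 13160 cells of NEJ709 and 386 CPM in 6347 cells of NEJ723. It was 510.1 CPM in 1682 cells of NEJ638, 981 CPM in 897 cells of NEJ654 and 805 CPM in 1266 cells of NEJ677. In NEJ709 this was about the level of its ambient RNA, 829 CPM, and these cells held 81.2% of the UMIs of the 37 genes in its cells. In the other 6 libraries it lay below the ambient level, which was 2171 to 4803 CPM. The hepatocyte-lineage markers in the same cells summed to 6519 CPM in NEJ634, 756 CPM in NEJ687, 2513 CPM in NEJ709, 1707 CPM in NEJ723, 2082 CPM in NEJ638, 4237 CPM in NEJ654 and 3101 CPM in NEJ677. The part of ambient RNA in these levels was not tested.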

How the results depend on the processing

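The sum in hepatocyte-lineage-like cells kept its order by name under most settings, while the size of the gap moved. Against 1.33 times, the lowest healthy-named sum over the highest tumor-named one was 1.47 with cells above the percentile rule only, 2.07 with doublets kept, 1.31 at Leiden resolution 2 and without shared barcodes, and 1.88 with cells gated singly on markers. It was 1.22 with ambient RNA subtracted, 1.38 without Kng1 and C4b, 1.52 without the 3 genes with the most UMIs, and 2.16 for clusters 14 and 25. It was reversed in the mean over cells, at 0.854, and for clusters 14 and 23, at 0.272. The mean over cells gives shallow cells more weight by construction, and beyond that the cause was not tested. With each library left out it was 1.33 to 1.99, the highest without NEJ677. The comparison of single clusters and the leaving out of libraries were chosen after seeing the data. Of the 37 genes, those lower in both tumor-named libraries numbered 26 to 36 over the settings of cell calling, doublets, clusters, totals and libraries. They numbered 27 with no filter on level, 34 without NEJ687 and 36 without NEJ677. None of the 37 was higher under any setting in which single genes were read. Single genes were not read for clusters 14 and 23, where the sum was reversed. The share of all genes lower was 21.4% in the main count and 22.7% for clusters 14 and 25. Leaving out a library loosens the rule for every gene, and the shares for those settings are not given, so these counts say nothing about the 37 genes in particular. In the mean over cells 9 of the 27 no longer split by name: F7, F12, Fga, Fgg, C1ra, C2, C3, Cfi and Masp1. With ambient RNA subtracted 5 no longer did, which were F7, Fgg, C1ra, Cfi and Masp1, while C6 did. The distance in fibrinogen share was 6.67 percentage points and 8.47 without Kng1 and C4b.

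Over all cells, the ratio of 0.635 became 0.532 by the percentile rule, 0.716 with all barcodes over 500 UMIs and 0.682 without haemoglobin and mitochondrial UMIs. It ran from 0.635 to 2.30 with each library left out and was reversed, to 2.30, without NEJ634. In ambient RNA the ratio of 1.40 became 1.54 without haemoglobin and mitochondrial UMIs and 1.35 after dropping barcodes that were cells elsewhere, and it ran from 1.40 to 1.56 with each library left out. Pairs above the ambient expectation numbered 29 to 43 against 30. The order of levels without NEJ709 or NEJ723 was not run, since they hold under 20 hepatocyte-lineage-like cells. NEJ709 with doublets kept (49 cells) and NEJ723 with cells gated singly (96 cells) would have passed that limit, and both were left out for comparability. Beside the main results, the values checked were the order of each gene, sums and role shares by library, and the percent of all genes lower. Of these, 713 kept their call or stayed within the limits set, 48 passed the order rule newly and 15 no longer did. The 130 that moved were sums, shares or percents, not orders of single genes. No paired analysis was possible because the labels give no groups and no replicate numbers. Low counts limit C9, F9, Mbl2 and C6 in the tumor-named libraries, where NEJ687 has 2 to 34 UMIs of each.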
